A study of Mus musculus with 9 samples.

Results

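The knockdown of Syncrip with the hairpin shRNA-1 was compared with the control hairpin, 3 libraries against 3 out of 9 in the series, chosen by their sample labels. All groups were murine leukaemia cells that carry the MLL-AF9 fusion and had been transplanted serially through mice, and RNA was taken at day 4 after transduction with a control hairpin, with shRNA-1 or with another hairpin against Syncrip, shRNA-2. The labels name a scrambled control hairpin and the series' design text one against luciferase, and the sources used here do not settle which it was. Each sample was transduced and processed on its own, per the design text. The sources used here do not say whether separate mice supplied the cells. The p-values are therefore read only as how far cultures handled apart differed from each other.

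MLL-AF9 joins the amino-terminal part of the histone methyltransferase KMT2A to the elongation factor subunit AF9. It holds HOXA genes and MEIS1 active and blocks myeloid progenitors short of maturation. Granulocytes make their granules in waves: the primary granules of promyelocytes carry myeloperoxidase and serine proteases, and the secondary and tertiary granules of later stages carry lactoferrin, cathelicidin and gelatinases. SYNCRIP belongs to the hnRNP proteins, binds RNA and acts on splicing, translation and decay of mRNA.

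The promoters of granule genes that rose are shown because most genes of the granule lists were called higher and factors of the C/EBP and PU.1 families are known to drive such genes. The set was 10 granule genes of the fixed list or of the largest changes that were higher with shRNA-1: Mpo, Elane, Prtn3, Ltf, Camp, Ngp, S100a8, S100a9, Chi3l3 and Retnlg, all matched in the RefSeq promoter table (GRCm38.p6, the assembly of mm10). The 250 bases before the RefSeq start were searched on both strands for TTGCNNAA, a C/EBP-like motif, and GAGGAAG, a PU.1-like motif. TTGCNNAA was present in 4 of the 10 (Ltf, Ngp, S100a9, Retnlg) and in 9.57% of 32841 RefSeq promoter windows of this length. GAGGAAG was present in 4 others (Mpo, Elane, Prtn3, S100a8) and in 10.6% of all windows, and Camp and Chi3l3 held neither. The RefSeq start of Prtn3 lies 5191 bases downstream of its GENCODE start, so no base of its window, the match included, is upstream of both. These are matches of letters, and binding was not measured. In the sequences below only the bases upstream of both the RefSeq and the GENCODE start are printed, all on the plus strand and 5′ to 3′, with motif matches in capitals (a match on the other strand is printed as its reverse complement). Mpo is at chr11:87793534-87793580, Elane at chr10:79886062-79886246, Ltf at chr9:111019042-111019270 and Ngp at chr9:110419558-110419746.
Mpo: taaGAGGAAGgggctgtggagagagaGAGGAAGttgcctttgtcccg
Elane: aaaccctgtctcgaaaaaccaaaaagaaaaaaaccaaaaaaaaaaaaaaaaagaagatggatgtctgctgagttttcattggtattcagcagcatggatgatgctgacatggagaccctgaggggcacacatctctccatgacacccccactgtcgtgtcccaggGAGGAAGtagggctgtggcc
Ltf: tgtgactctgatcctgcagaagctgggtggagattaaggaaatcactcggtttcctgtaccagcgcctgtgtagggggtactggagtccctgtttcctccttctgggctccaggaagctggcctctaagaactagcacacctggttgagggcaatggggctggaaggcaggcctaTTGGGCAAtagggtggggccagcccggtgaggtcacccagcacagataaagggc
Ngp: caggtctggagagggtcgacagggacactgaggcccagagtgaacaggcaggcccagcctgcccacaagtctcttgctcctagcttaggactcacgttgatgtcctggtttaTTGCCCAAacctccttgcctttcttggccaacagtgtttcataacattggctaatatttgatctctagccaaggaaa
The 2 Mpo matches and the single Elane match are of GAGGAAG, and those of Ltf and Ngp are of TTGCNNAA.

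Levels are CPM, read counts scaled to a common library size with TMM factors, as mean ± SD (n = 3), and differences are log2 fold changes ± standard error from edgeR's quasi-likelihood test, with p-values adjusted over all 12663 genes tested. Total counts were 9559638 to 13416141 in the shRNA-1 libraries and 13683660 to 19483923 in the controls, so the knockdown arm was the shallower. The counts taken by Gm26924, mt-Rnr1 and mt-Rnr2, made up 14.8%, 11.98% and 19.3% of the shRNA-1 libraries and 7.86%, 8.29% and 4.77% of the controls (exact two-sided permutation p = 0.1, the smallest that 3 against 3 can give). These 3 are called the ribosomal RNA share here. Gm26924, at 9.95 ± 2.04% with shRNA-1 and 5.03 ± 1.82% in the controls, was taken to be ribosomal RNA on general knowledge, without an entry in the annotation used, so the share and each fit that uses it rest on that reading. Ptprc, Spi1 and Itgam, markers of blood and myeloid cells, were present at 129 ± 12.3, 383 ± 34.2 and 167 ± 21.7 CPM with shRNA-1, and at 204 ± 9.75, 351 ± 44.5 and 177 ± 10.9 in the controls. Ptprc, which encodes CD45, fell by 0.66 ± 0.14 (adjusted p = 0.00363, edgeR), a call lost with the ribosomal RNA share as a further term (0.0804), and was also 0.82 ± 0.14 below its level with shRNA-2. Alas2, Cd79a, Cd3g, Cd8a, Col3a1, Dcn and Cdh5, defining markers of erythroid, B, T, stromal and endothelial cells, had no counts in any of the 6 libraries. Others were counted in all 6, such as the B cell gene Cd79b at 10.8 to 17.8 CPM, the T cell kinase gene Lck at 1.61 to 2.96 and the stromal receptor gene Pdgfrb at 0.554 to 3.31.

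Syncrip itself stood at 241, 231 and 207 CPM in the controls and at 20.1, 15.9 and 17.3 with shRNA-1, a fall of 3.68 ± 0.16 on the log2 scale (adjusted p = 3.79e-07, edgeR). The groups were far apart, and all 3 shRNA-1 libraries also lay below the 3 shRNA-2 libraries, at 63.2, 46.3 and 60.4 CPM. Hnrnpr, the closest relative of Syncrip, was 40.5 ± 1.80 CPM against 49.03 ± 1.36 (-0.28 ± 0.12, adjusted p = 0.0953). The libraries did not overlap, and the difference missed the threshold. It passed as lower with total-count scaling (0.0151) and in a fit of only these groups (0.0294), and passed as higher by 0.41 once the trend with transcript length was taken out (0.0220). Across all genes the test called 34.7%, with 17.4% higher and 17.3% lower. Changes of at least 2-fold were 5.82% higher and 5.53% lower, and 52.6% of all genes had no overlap between the groups. These shares are the background for the counts of gene lists, and a list near them shows nothing of its own. They belong to this main fit. With the ribosomal RNA share as a further term 827 genes were called higher and 531 lower, and with total-count scaling 1084 and 3465.

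Among the primary granule proteins, 11 of 14 genes rose, 1 fell, and the median log2 fold change was 0.88, against 0.02 over all genes. Mpo, myeloperoxidase (chromosome 11, 87793581 to 87804413), stood at 25.04, 24.3 and 14.01 CPM in the controls and at 575, 494 and 508 with shRNA-1. The 3 knockdown libraries were alike and lay far above the controls. The shRNA-2 libraries, at 6.01, 12.8 and 7.15 CPM, lay below all controls, so Mpo was 5.94 ± 0.31 higher with shRNA-1 than with shRNA-2 (adjusted p = 7.36e-07, edgeR). Elane, neutrophil elastase, was at 1650, 1745 and 1399 CPM in the controls and at 5632, 3315 and 3425 with shRNA-1 (1.37 ± 0.27, adjusted p = 0.00268). Replicate 1 was the highest by far. Prtn3, proteinase 3 and the neighbour of Elane on chromosome 10, went from 2510, 2495 and 1934 CPM to 4881, 4003 and 3937 (0.89 ± 0.18, adjusted p = 0.00342).

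Ctsg, cathepsin G, was at 859, 848 and 730 CPM in the controls and 848, 800 and 937 with shRNA-1, and the groups overlapped (0.09 ± 0.16, adjusted p = 0.710, edgeR). It was nevertheless higher than with shRNA-2 by 1.22 ± 0.16 (adjusted p = 0.000125). Lyz2, lysozyme, rose from 318, 405 and 485 CPM to 695, 1452 and 1732, with replicate 1 the lowest of the knockdown libraries. Cst7, cystatin F, an inhibitor of the protease activator cathepsin C, fell by 0.58 ± 0.12, and it lay 1.39 ± 0.12 below its level with shRNA-2. In a fit that also held each library's ribosomal RNA share, here called the ribosomal RNA covariate, 2 of the 11 rises of the list passed. Mpo kept a difference of 3.86 there (adjusted p = 2.31e-05), while Elane (0.0739), Prtn3 (0.0930) and Lyz2 (0.129) lost the call. The share differs between the groups, so it and the knockdown cannot be told apart in that fit.

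Of the 31 secondary and tertiary granule and mature neutrophil genes tested, out of 33 in the tables, 22 rose and 1 fell, with a median of 1.29. Camp, the cathelicidin precursor, was at 304, 215 and 284 CPM in the controls and at 1226, 1222 and 1163 with shRNA-1 (2.17 ± 0.16, adjusted p = 1.63e-05, edgeR). The knockdown libraries agreed closely and did not overlap the controls. Ltf, lactoferrin, rose from 12.4, 13.1 and 11.7 CPM to 30.2, 33.7 and 42.2 (1.52 ± 0.17, adjusted p = 0.000171). Ltf shares the Mpo pattern of being lower with shRNA-2 than in the controls, at 5.54 ± 1.25 CPM. Fcnb, ficolin B, rose from 20.8, 17.2 and 17.7 CPM to 105, 95.0 and 95.5, and Retnlg, a resistin-like protein of neutrophils, from 1.77, 1.19 and 1.28 to 10.4, 8.22 and 9.97. Retnlg remained at 1.30 ± 0.524 CPM with shRNA-2. Chi3l3, a chitinase-like protein, went from 25.9, 31.5 and 20.6 CPM to 188, 270 and 365, but it has close paralogs and its reads are uncertain.

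The most abundant genes of this group, S100a8 and S100a9, which encode the subunits of calprotectin, reached 17771 ± 2353 and 10976 ± 1445 CPM, from 5607 ± 460 and 4828 ± 200 in the controls. Their rises were 1.66 ± 0.22 and 1.18 ± 0.19 (adjusted p = 0.000390 and 0.000941, edgeR). For these 2 genes the difference between the hairpins did not pass the test: shRNA-1 minus shRNA-2 was -0.28 ± 0.22 and -0.34 ± 0.19 (adjusted p = 0.327 and 0.168). Ngp, a neutrophil granule protein related to cathelicidin, rose from 1273, 1396 and 1223 CPM to 2238, 2206 and 2609, yet was lower than with shRNA-2 by 0.69 ± 0.14. The granule metalloproteases and lipocalin were looked up after the values had been seen. Mmp9, gelatinase B, rose by 2.36 ± 0.25, Mmp8, neutrophil collagenase, by 1.76 ± 0.28, and Lcn2, lipocalin, by 1.51 ± 0.21, and Mmp8 lost its call with the ribosomal RNA covariate (adjusted p = 0.0562). Slpi, an inhibitor of elastase and cathepsin G, was the member that fell, from 865, 1043 and 947 CPM to 332, 470 and 462 (-1.18 ± 0.16, adjusted p = 0.000458). In the shRNA-2 libraries Slpi was at 1597, 1872 and 1743 CPM, above every control.

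Set against shRNA-2 directly, granule genes went in both directions. In the primary group 5 genes were higher and 2 lower with shRNA-1 than with shRNA-2, and in the secondary and mature group 6 were higher and 10 lower. Over all genes, 41.0% were called between the hairpins, 19.7% higher and 21.3% lower with shRNA-1. In bulk RNA a change in the number of cells that make a granule protein and a change in its RNA per cell cannot be told apart.

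Of 20 chemoattractant receptors, by which neutrophils and monocytes find microbes, 12 rose and 1 fell (median 1.18). Fpr1, a receptor for bacterial formyl peptides, was at 5.98, 6.10 and 5.26 CPM in the controls and at 27.9, 76.4 and 97.2 with shRNA-1 (3.54 ± 0.39, adjusted p = 0.000128, edgeR). Fpr2, its neighbour on chromosome 17, went from 15.01, 15.9 and 16 CPM to 57.0, 135 and 167. For both, replicate 1 was the lowest knockdown library and still lay above all controls. Both were also higher than with shRNA-2, by 2.97 ± 0.38 and 1.92 ± 0.34. C5ar1, the receptor of complement C5a, rose from 20.5, 15.4 and 12.5 CPM to 64.2, 77.4 and 66.3 and was 0.54 ± 0.20 lower than with shRNA-2 (adjusted p = 0.0478). Csf3r, the receptor of G-CSF, was the one that fell, at 1.12 ± 0.419 against 2.46 ± 0.713 CPM. It did not pass once shRNA-1 replicate 1 (adjusted p = 0.0916, edgeR), shRNA-1 replicate 2 (0.0716) or control replicate 3 (0.126) had been taken out. The Csf3r call was also lost with the ribosomal RNA covariate (0.451). With the ribosomal RNA covariate 6 of the 12 rises passed.

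Of 30 C-type lectin and paired myeloid receptors, 13 rose and 3 fell (median 0.44), and 18 were lower than with shRNA-2 while 1 was higher. Clec4n, dectin-2, rose from 85.2 ± 9.98 to 425 ± 150 CPM. Clec4a3 and Klra2 rose by 2.82 ± 0.24 and 2.59 ± 0.30, both with close paralogs and uncertain reads. Cd300ld went the other way, from 22.3, 23.2 and 30.0 CPM to 10.4, 10.6 and 13.7, against 92.0 to 159 with shRNA-2, and lost its call with the ribosomal RNA covariate (adjusted p = 0.118). In the Toll-like receptor group 9 of 16 genes rose and none was called lower. Tlr4, the receptor of endotoxin, rose from 30.1 ± 4.64 to 83.1 ± 2.59 CPM. That count fell to 5 without shRNA-1 replicate 3, without control replicate 1 or with total-count scaling, and to 3 under the ribosomal RNA covariate. Among annexins and S100 proteins 8 of 13 rose and none was called lower, led by Anxa1, annexin A1, which dampens neutrophil recruitment (10.4, 12.4 and 14.4 CPM in the controls against 89.6, 141 and 168). S100a6, a calcium-binding protein, rose by 2.04 ± 0.24. Under the ribosomal RNA covariate 2 of these 8 rises passed.

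The monocyte and macrophage genes divided. Of 33 tested, 11 rose and 2 fell (median 0.78), while 29 were lower than with shRNA-2 and none was called higher. Mpeg1, perforin-2 of macrophages, rose from 8.36 ± 1.37 to 35.3 ± 16.03 CPM and Msr1, a scavenger receptor, from 37.6 ± 6.20 to 122 ± 35.9. Lpl, lipoprotein lipase, fell from 77.0, 95.8 and 206 CPM to 25.3, 39.3 and 32.6. Csf1r, the receptor of M-CSF, was at 39.4, 50.1 and 66.4 CPM in the controls and 30.0, 63.7 and 54.8 with shRNA-1, so the groups overlapped (-0.07 ± 0.30, adjusted p = 0.888, edgeR). Csf1r lay 2.42 ± 0.32 below its level with shRNA-2 (adjusted p = 0.000122). The 11 rises were 4 without shRNA-1 replicate 3, 6 without shRNA-1 replicate 2, 4 without control replicate 1, 7 without control replicate 2 or 3, and 17 without shRNA-2 replicate 1 or without the filter on low counts. With the ribosomal RNA covariate none passed, including Mpeg1 (adjusted p = 0.0669) and Msr1 (0.121), and Lpl lost its call there too (0.293).

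Among 33 myeloid transcription factors 11 rose and 6 fell, a rise share above the 17.4% of all genes and a fall share of 18.2%, near the 17.3%. Cebpb, a C/EBP factor of emergency granulopoiesis and macrophages, rose from 192, 239 and 196 CPM to 540, 718 and 552 (1.53 ± 0.22, adjusted p = 0.000577, edgeR). It did not overlap the controls and was higher than with shRNA-2 by 1.05 ± 0.22 (adjusted p = 0.00243). Cebpe, the C/EBP factor of secondary granules, was at 105, 148 and 137 CPM in the controls and 141, 133 and 137 with shRNA-1 (0.08 ± 0.14, adjusted p = 0.717). Spi1, which encodes PU.1, was likewise within the spread of its controls (0.13 ± 0.17, adjusted p = 0.6003). Cebpa, needed for the step to granulocyte progenitors, fell from 60.3, 62.5 and 56.8 CPM to 45.7, 38.0 and 46.2 (-0.47 ± 0.13, adjusted p = 0.0140), a call lost without shRNA-1 replicate 2 (0.0743). Gfi1, a repressor that favours neutrophils over monocytes, fell from 207, 179 and 193 CPM to 145, 138 and 121 (-0.52 ± 0.12, adjusted p = 0.00622) and was 0.48 ± 0.12 above its level with shRNA-2. Irf5 and Klf6, factors of inflammatory macrophages, rose by 1.57 ± 0.26 and 1.5 ± 0.13, and Runx3 and Stat3 fell by 0.99 ± 0.18 and 0.79 ± 0.15. Rises of the list numbered 7 with total-count scaling, and falls numbered 3 without shRNA-1 replicate 2. With the ribosomal RNA covariate 5 rises and 2 falls passed, and Gfi1 (adjusted p = 0.165), Runx3 (0.0802) and Stat3 (0.109) lost the call.

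Of 35 MLL and HOX genes tested, out of 41 in the tables, 20 fell and 2 rose (median -0.60), and the rises numbered 0 or 1 when any 1 shRNA-1 or control library was left out. The median longest transcript of the 20 genes that fell was 4580 bases, against 2793 for all genes. With the trend with transcript length taken out 17 fell and 5 rose. Cd34, a sialomucin of stem and progenitor cells (chromosome 1, 194938819 to 194961279), was at 125, 149 and 152 CPM in the controls and at 24.6, 28.7 and 30.5 with shRNA-1 (-2.35 ± 0.15, adjusted p = 9.06e-06, edgeR). All shRNA-1 libraries lay below the 86.1, 98.3 and 119 CPM of shRNA-2, a difference of -1.85 ± 0.15 (adjusted p = 5.45e-06). Gata2, a factor of stem and progenitor cells, fell from 11, 13.4 and 11.5 CPM to 2.31, 1.84 and 2.77. Kmt2a, whose amino-terminal part is in the fusion, fell from 116, 140 and 175 CPM to 30.4, 34.5 and 35.3, and whether its count takes in reads of the fusion is unknown here. Mllt3, which encodes AF9 and was looked up after the values had been seen, fell from 2.38, 2.98 and 4.33 CPM to 0.769, 0.230 and 0.554 (-2.70 ± 0.44, adjusted p = 0.00109) and lay 2.45 ± 0.45 below shRNA-2. Msi2, an RNA-binding protein of self-renewal, fell from 29.5, 31.7 and 29.6 CPM to 17.8, 14.4 and 14.2.

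Within the HOXA cluster of chromosome 6 the genes did not move as 1 block. Hoxa9 fell from 378, 378 and 440 CPM to 262, 279 and 274 (-0.55 ± 0.11, adjusted p = 0.00362, edgeR), and it stood higher than with shRNA-2 by 0.88 ± 0.12. Hoxa3 fell from 4.66, 6.83 and 14.5 CPM to 0.659, 1.92 and 2.12, with a wide spread in the controls. Hoxa10, next to Hoxa9, rose from 86.0, 98.6 and 98.8 CPM to 112, 123 and 131 (0.37 ± 0.12, adjusted p = 0.0318). The Hoxa10 call was lost without shRNA-1 replicate 2 or 3 and without any 1 control library. It was also lost with total-count scaling (0.484) and without the filter on low counts (0.124). Meis1, the partner of HOXA9, fell by 0.37 ± 0.11 (adjusted p = 0.0248) and Myb, a factor of progenitors, by 0.33 ± 0.12 (0.0440). The Meis1 call was lost without any 1 shRNA-1 library, without control replicate 2 or 3 and with the length trend taken out (0.826). The Myb call needed each of the 6 libraries compared and shRNA-2 replicate 3. It was also lost with the length trend taken out (0.107) and without the filter on low counts (0.0734). Kit, the stem cell factor receptor, was at 8.29 ± 1.46 against 6.40 ± 0.542 CPM (0.36 ± 0.19, adjusted p = 0.149), and passed as higher with the length trend taken out (0.0401). Myc rose by 0.63 ± 0.23 (adjusted p = 0.0489), which no longer passed when any 1 of the 6 libraries compared was dropped. The Myc call was also lost with total-count scaling (0.283), with the length trend taken out (0.0600) and with ribosomal RNA and mitochondrial genes left out (0.0515). With the ribosomal RNA covariate it held, at a larger difference of 1.23 (adjusted p = 0.00928, edgeR). With the ribosomal RNA covariate 9 of the 20 falls passed, Cd34 (adjusted p = 0.000293), Kmt2a (0.00224), Mllt3 (0.0392) and Msi2 (0.00846) among them. Gata2 (0.0677), Hoxa3 (0.216), Hoxa9 (0.121), Hoxa10 (0.367), Meis1 (0.347) and Myb (0.454) lost the call there.

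**Figure D1:**
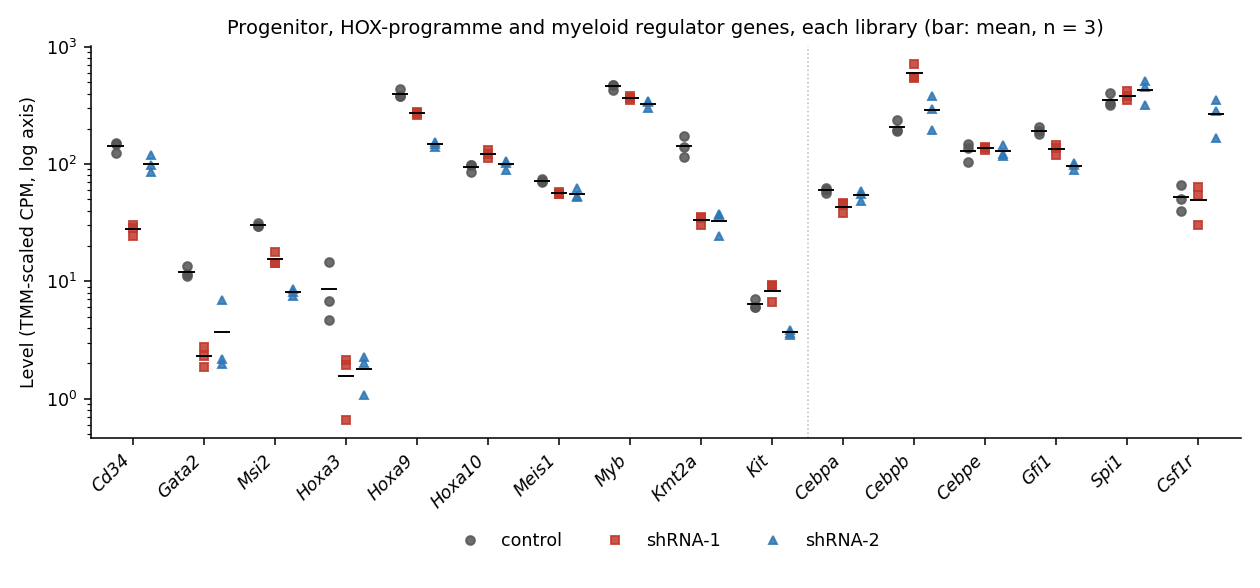
Level in TMM-scaled CPM (log axis) of progenitor and HOX-programme genes (left of the dotted line) and myeloid regulators (right) in each of the 9 libraries, with black bars for the mean of 3. Cd34 is lowest with shRNA-1, Hoxa9 and Msi2 are lowest with shRNA-2, Cebpb is highest with shRNA-1, and Csf1r is high with shRNA-2 alone among the groups shown.

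Genes that differed from both the control and shRNA-2 in the same direction, ranked by their change against the control, gave 10 rises and 10 falls. Non-overlap and both calls were conditions of choosing them. Besides Mpo, Fpr1, Fpr2, Chi3l3 and Retnlg, the rises were Krt81, Ifitm6, Slc40a1, Rbpms2 and Rpph1. Rbpms2, an RNA-binding protein, went from 12.5, 10.6 and 12.95 CPM to 66.0, 85.3 and 78.8 and was at 8.04, 4.64 and 4.32 with shRNA-2. Krt81, a hair keratin, went from 0.760, 0.729 and 0.309 CPM to 7.25, 9.98 and 13.01. Slc40a1, the iron exporter ferroportin, went from 26.3, 23.7 and 19.2 CPM to 94.6, 148 and 203, and Ifitm6, an interferon-induced membrane protein of myeloid cells, from 4.92 ± 0.271 to 33.2 ± 3.23. Rpph1, the RNA of ribonuclease P, which has no poly(A) tail, rose from 39.0, 27.1 and 21.0 CPM to 122, 146 and 233, while the shRNA-2 libraries held 8.41, 16.6 and 9.98. Rpph1 was highest in shRNA-1 replicate 3, the library with the highest ribosomal RNA share. Its difference of 2.52 ± 0.31 became 1.60 under the ribosomal RNA covariate, where the call held (adjusted p = 0.00802, edgeR). In shRNA-2 replicate 2, with a share of 15.8%, Rpph1 was below every control. The cause of its rise was not tested.

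Besides Syncrip and Cd34, the falls against both were Elovl6, Hirip3, Nupr1, Eea1, Padi2, Gstt1, Ttc3 and Serpina3g. Elovl6, an elongase of fatty acids, fell from 18.3, 16.6 and 19.9 CPM to 3.95, 2.69 and 2.21. Padi2, a peptidylarginine deiminase, fell from 10.8, 12.9 and 10.6 CPM to 1.98, 2.23 and 3.32. Hirip3, a histone-binding protein, fell by 2.36 ± 0.21, Nupr1, a stress-induced nuclear protein, by 2.26 ± 0.30, and Eea1, an endosome tether, by 2.19 ± 0.39. Gstt1, a glutathione transferase, moved apart with the hairpins, falling from 8.65 ± 3.46 to 1.97 ± 0.941 CPM, while shRNA-2 libraries held 19.8 ± 0.923. Without Syncrip and Cd34, adjusted p of these falls ran from 3.64e-05 (Hirip3) to 0.00165 (Eea1, edgeR). Eea1 lost its call with the ribosomal RNA covariate (0.0997).

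Among the SYNCRIP-related RNA-binding proteins, 5 of 37 rose and 10 fell (median -0.20), the rises below and the falls above the background shares. Ptbp3, a splicing regulator of blood cells, rose from 390 ± 53.7 to 869 ± 48.2 CPM, and Rbm47, related to Syncrip and Hnrnpr by its RNA-recognition motifs, from 13.4, 10.3 and 8.62 CPM to 27.5, 29.6 and 26.5. Gemin5, of the SMN complex, fell by 1.13 ± 0.17. Falls of this list numbered 18 with total-count scaling, and 6 when replicate 2 or 3 of shRNA-1 or replicate 2 of the control was dropped. Under the ribosomal RNA covariate they numbered 3, in a fit that called 531 of all 12663 genes lower. Rises numbered 3 without shRNA-1 replicate 1 or 2, without control replicate 2 or 3, and with total-count scaling.

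Of 58 mitosis and kinetochore genes 28 fell and 4 rose (median -0.40). Cenpe, the kinetochore motor, was at 94.4, 119 and 145 CPM in the controls and at 21.9, 20.7 and 21.4 with shRNA-1, and Mki67, the Ki-67 antigen, fell by 2.10 ± 0.34, a call lost with the ribosomal RNA covariate (adjusted p = 0.0639). Cenpa, the histone of the centromere, rose from 153, 136 and 149 CPM to 252, 272 and 248 (0.82 ± 0.11, adjusted p = 0.000390, edgeR), while with shRNA-2 it stood below the controls at 94.6 ± 3.75. Cdk1, the mitotic kinase, rose by 0.54 ± 0.16 (adjusted p = 0.0211), a call lost with total-count scaling (0.225) and without shRNA-1 replicate 1 or 2 or control replicate 2 or 3. The median longest transcript of the 28 genes that fell was 4788 bases and that of the 4 that rose 2472. With the trend with transcript length taken out 26 falls and 3 rises of the list passed, and its median was -0.40. The 4 rises were 1 or 2 without any 1 shRNA-1 library or without control replicate 2 or 3, and 3 of the 28 falls passed with the ribosomal RNA covariate.

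DNA replication genes were close to background, with 7 of 49 higher, 10 lower and a median of -0.03. Rpa3, the smallest subunit of replication protein A, rose from 13.2, 16.2 and 17.1 CPM to 44.7, 54.1 and 46.0, and Tyms, thymidylate synthase, from 35.4, 31.0 and 38.1 to 60.7, 65.6 and 61.1. Both also passed with the ribosomal RNA covariate and were higher than with shRNA-2, as were 26 of the 49 genes. Ccne1, cyclin E1, rose by 0.81 ± 0.14. Rfc1, the large subunit of the clamp loader, fell from 133, 167 and 198 CPM to 41.2, 46.2 and 48.7, and Pole, the catalytic subunit of polymerase epsilon, by 0.87 ± 0.13. Falls of the list numbered 3 under the ribosomal RNA covariate, 5 when replicate 2 of shRNA-1 was dropped, 6 when its replicate 3 or replicate 1 or 3 of the control was, 18 in a fit of only these groups and 19 with total-count scaling. Of 27 centrosomal Cep genes 15 fell and 3 rose, led by Cep290 at 7.45, 9.94 and 19.2 CPM in the controls and 1.21, 1.54 and 2.21 with shRNA-1. The falls numbered 9 without control replicate 3 and 1 with the covariate, and the rises 0 with total-count scaling or when replicate 1 or 2 of shRNA-1 or replicate 2 of the control was dropped. Of 30 nuclear pore genes 8 fell and 3 rose. Tpr, of the pore basket, fell from 208, 283 and 357 CPM to 47.9, 53.8 and 47.8, and Nup37, a small subunit of the pore scaffold, rose by 0.84 ± 0.14. The pore falls numbered 4 with the length trend taken out, under the ribosomal RNA covariate or without control replicate 2, and 5 when replicate 2 or 3 of shRNA-1 or replicate 1 of the control was dropped. Pore rises numbered 5 without shRNA-2 replicate 1.

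Across all genes the fold change varied with the length of the transcript. Among the 12522 tested genes with an annotated transcript length (98.9%), the 1769 genes with a longest transcript of up to 1000 bases had a median log2 fold change of 0.37, and 24.5% were called higher and 3.00% lower. At 2000 to 3000 bases the median was 0.03. At 6000 to 8000 bases it was -0.26, at 8000 to 12000 bases -0.40, and for the 103 genes over 12000 bases -0.54, with 4.85% called higher and 49.5% lower. Spearman's rho between length and log2 fold change was -0.32 across genes, which are not independent replicates. Genes called higher had a median length of 2247 bases, genes called lower 3990 and genes not called 2652. Of the 15 largest rises 1 was longer than the median of all genes, and of the 15 largest falls 10 were.

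Each shRNA-1 library showed this gradient, with medians in the shortest bin of 0.30, 0.27 and 0.35 and over 12000 bases of -0.55, -0.49 and -0.44 (log2 of CPM + 0.5, against the control mean). The control libraries ran between -0.04 and 0.05 in every bin, but the reference was their own mean, which by itself centres them on 0. The shRNA-2 libraries differed among themselves. Replicate 2, with a ribosomal RNA share of 15.8%, had 0.27 in the shortest and -0.58 in the longest bin, close to shRNA-1. Replicate 1, with a share of 6.10%, within the range of the controls, had 0.01 and -0.20. Replicate 3, with 10.4%, had 0.13 and -0.29. Among the shRNA-1 libraries the medians of the shortest bin rose with the share, from 0.27 at 11.98% to 0.30 at 14.8% and 0.35 at 19.3%. In the longest bin the order differed, since replicate 3, with the highest share of all, had the smallest fall of the shRNA-1 libraries (-0.44). Some long genes moved with these libraries. In shRNA-2 replicates 1, 2 and 3 Cenpe was at 54.6, 13.1 and 34.7 CPM and Tpr at 168, 43.0 and 143. Ppig, a nuclear cyclophilin, was at 189, 44.9 and 141. Other long genes did not: Ptbp3 (6855 bases) was at 809, 880 and 858 CPM and Msi2 (6436 bases) at 7.55, 8.58 and 8.16. With shRNA-1 Cenpe, Tpr and Ppig were even across libraries, Ppig at 43.0, 47.3 and 41.0. Under the ribosomal RNA covariate the medians for shRNA-1 shrank to 0.09 in the shortest and -0.39 in the longest bin. Whether RNA quality made the gradient was not tested. With the length trend of each library taken out, 79.4% of the 4389 calls held, those of Mpo (4.64), Camp (1.90), Cd34 (-2.36), Cenpe (-2.13) and Cenpa (0.68) among them.

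**Figure D2:**
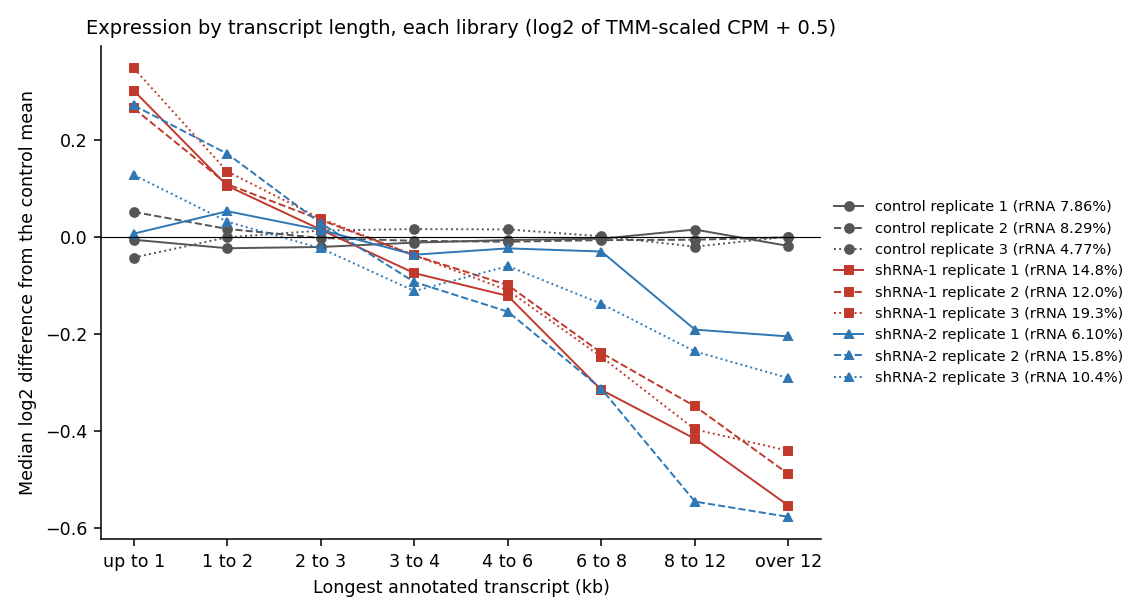
Median log2 difference from the control mean (vertical axis) of genes binned by their longest annotated transcript (horizontal axis, kb), 1 line per library, with the ribosomal RNA share of each library in the legend. The 3 shRNA-1 lines fall from 0.27 to 0.35 in the shortest bin to -0.55 to -0.44 in the longest. The control lines stay near 0, where the use of their own mean as reference centres them. The line of shRNA-2 replicate 2 runs with shRNA-1, while shRNA-2 replicate 1 is the flattest of its group.

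Of 78 cytosolic ribosomal proteins, with a median length of 910 bases, 14 rose and 1 fell. Of 75 nuclear-encoded oxidative phosphorylation subunits (913 bases) 25 rose and 3 fell, and of 71 mitochondrial ribosomal proteins (1339 bases) 18 rose and 2 fell. With the length trend taken out these became 4 higher and 5 lower, 9 and 9, and 10 and 8, and with total-count scaling 2 and 4, 9 and 11, and 4 and 15, so no direction is given for these families. Without control replicate 3 their rises numbered 6, 14 and 7, the lowest when any 1 library was left out. Sdhd, an anchor of complex II, rose from 28.7, 47.3 and 53.2 CPM to 129, 150 and 134, and its call held with the trend taken out (1.51). Mrps28 rose by 1.41 ± 0.20 and Rpl39l by 1.15 ± 0.17, and Mrpl16 fell by 1.15 ± 0.12. Of 33 proteasome subunits 12 rose and 2 fell, among them Psma1 (0.81 ± 0.11), and with total-count scaling 4 were higher and 7 lower. Proteasome rises numbered 7 without shRNA-1 replicate 3 or control replicate 2 or 3, and 1 under the ribosomal RNA covariate, and 7 were higher and 5 lower with the length trend taken out.

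Nucleolar genes of ribosome biogenesis had a median length of 2953 bases, near the 2793 of all genes. Of 53 genes 25 fell and 3 rose (median -0.39), with 23 to 27 falls when any 1 library was left out, and 13 passed under the ribosomal RNA covariate. The 3 rises became 1 when replicate 2 or 3 of any group, other than shRNA-2 replicate 2, was dropped. Ncl, nucleolin, fell from 1944, 1858 and 1851 CPM to 753, 748 and 674, Rrp12, a factor of ribosomal RNA export, from 65.7 ± 1.21 to 24.9 ± 2.35, Dkc1, the pseudouridine synthase dyskerin, by 1.39 ± 0.20, and Tcof1, treacle, by 1.54 ± 0.29. The calls of Ncl (adjusted p = 0.171, edgeR) and Tcof1 (0.140) were lost with that covariate. In this list 21 genes were higher with shRNA-1 than with shRNA-2 and none was called lower.

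Of 35 genes of cholesterol and fatty acid synthesis 11 fell and none was called higher (median -0.31), including Fasn, fatty acid synthase, from 238 ± 31.3 to 126 ± 9.97 CPM. The falls numbered 6 without shRNA-1 replicate 2 or control replicate 3, 7 when replicate 3 of shRNA-1 or replicate 1 of the control was dropped, 21 with total-count scaling and 2 under the ribosomal RNA covariate. Of 30 genes of amino acid supply and ATF4 11 fell and 3 rose. Slc7a11, the cystine importer, was the largest rise, from 13.4, 11.5 and 10.8 CPM to 21.7, 43.2 and 62.8, with a wide spread and no call with the ribosomal RNA covariate (adjusted p = 0.0584), and the falls of this list numbered 6 without shRNA-1 replicate 2 or 3 and 3 under that covariate.

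Of 22 genes known as p53 targets 14 rose and 2 fell (median 0.76), with 10 to 15 higher when any 1 library was left out. Cdkn1a, the CDK inhibitor p21, went from 264 ± 28.3 to 530 ± 164 CPM (1.01 ± 0.20, adjusted p = 0.00330, edgeR), and was 0.93 ± 0.20 lower than with shRNA-2. Phlda3, a repressor of AKT, rose by 1.65 ± 0.28, Trp53inp1 by 1.48 ± 0.32, Zmat3, an RNA-binding protein, by 1.02 ± 0.19, and Bax, which opens mitochondria in apoptosis, by 0.89 ± 0.22. With the ribosomal RNA covariate 1 of the 14 passed, and none of these 5 did (adjusted p from 0.0566 to 0.182). In the BCL2 family 5 of 15 rose and 1 fell. Bcl2, the survival factor, was the fall, from 9.28, 11.1 and 9.77 CPM to 3.40, 3.23 and 2.86 (-1.66 ± 0.22, adjusted p = 0.000405), while shRNA-2 left it at 9.30 ± 2.45. Bcl2l11, the killer BIM, rose by 0.71 ± 0.14, a call lost with total-count scaling (0.0527), and rises of this family then numbered 3.

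Of 21 AP-1 and immediate early genes 9 rose and 1 fell. Fos rose from 2.59, 2.98 and 4.33 CPM to 5.38, 14.4 and 13.7, and Jund was the fall, from 53.8, 82.2 and 90.4 to 24.9, 28.3 and 33.2. Fos lost its call with the ribosomal RNA covariate (adjusted p = 0.0985). Of 34 type I interferon genes 9 rose and 2 fell, and 28 were lower than with shRNA-2 with none called higher. Oas1a and Oas1g, antiviral synthetases with close paralogs and uncertain reads, rose by 1.19 ± 0.24 and 1.60 ± 0.27. The interferon rises numbered 20 without shRNA-1 replicate 1, 3 without shRNA-1 replicate 3, 5 without control replicate 2 or 3 or with total-count scaling, 2 under the ribosomal RNA covariate and 16 without the filter on low counts.

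**Figure D3:**
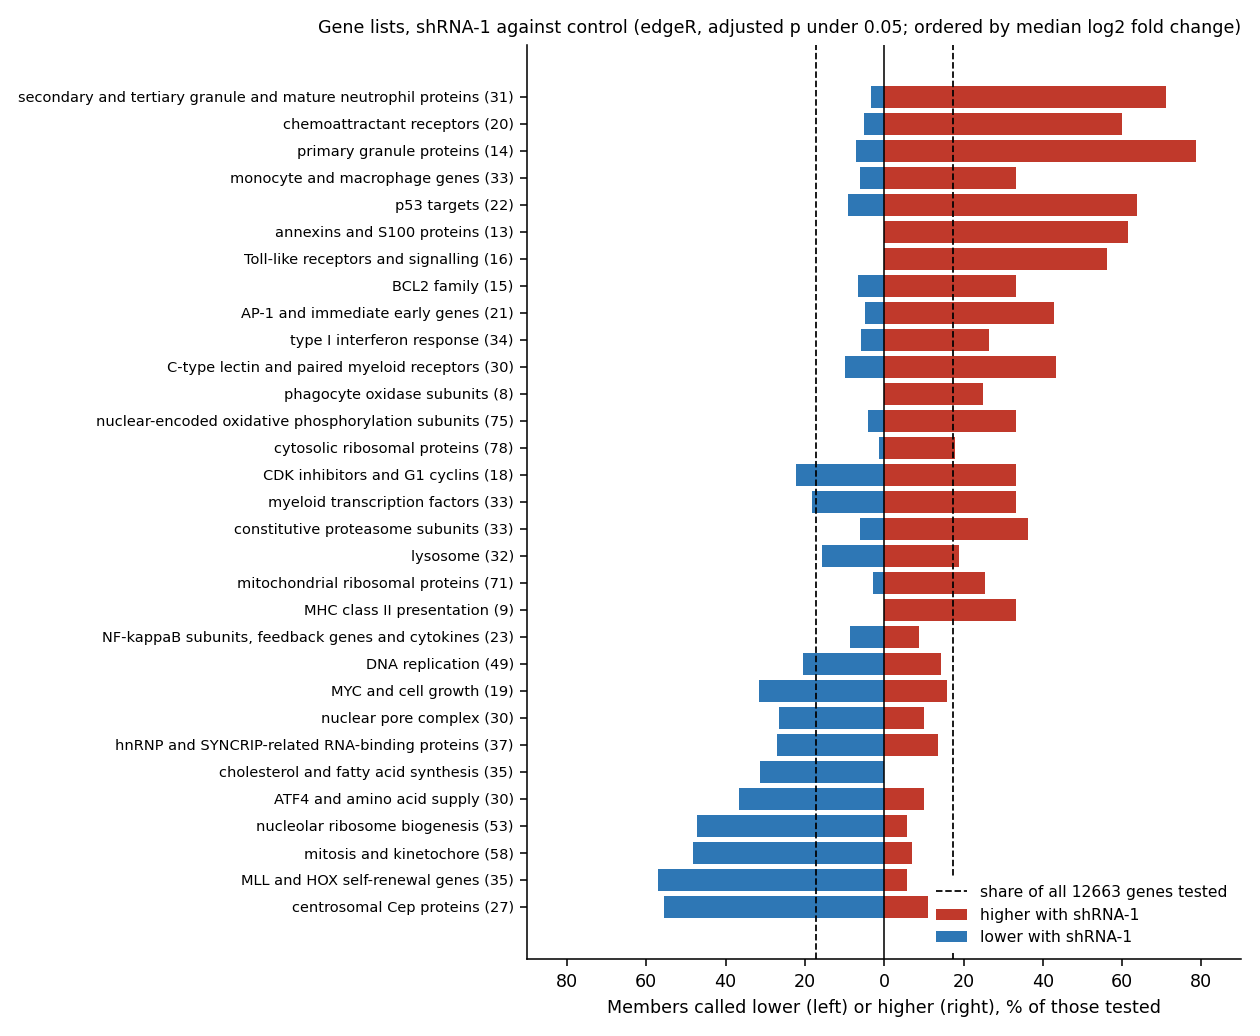
Share of the tested members of each list plotted called higher (red, to the right) or lower (blue, to the left) with shRNA-1 than in the control at an adjusted p under 0.05, with the number tested in brackets and lists ordered by median log2 fold change. Lists of other cell types and of ribosomal RNA, mitochondrially encoded mRNAs and nuclear long noncoding RNAs are not plotted. Dashed lines mark the 17.4% and 17.3% of all 12663 genes, and granule, receptor and p53 lists stand beyond the line on the right and Cep, HOX, mitosis and nucleolar lists beyond that on the left.

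Of the markers of other cell types, no counts in any of the 6 libraries were found for 6 of 14 erythroid, 2 of 13 platelet, 3 of 17 mast cell, basophil and eosinophil, 1 of 11 B cell, 5 of 13 T and NK cell, 0 of 10 dendritic and 5 of 11 stromal and endothelial markers. Ppbp, a chemokine of platelets that monocytes also make, rose from 1.52, 2.52 and 2.12 CPM to 7.58, 20.7 and 27.9, and Cd9, a tetraspanin of platelets and other cells, from 35.7 ± 6.49 to 62.2 ± 8.92, while the platelet receptor gene Gp1ba was at 0. Itgb3, the beta chain of the platelet integrin, was the fall of that list, from 5.83, 6.17 and 8.05 CPM to 3.29, 3.99 and 3.88 (-0.84 ± 0.22, adjusted p = 0.0128, edgeR). Its call was lost without control replicate 3 (0.0619) and under the ribosomal RNA covariate (0.418). Pf4, Itga2b, Gp9 and Gp1bb were counted in all 6 libraries. The summed level of the platelet list was 66.4 to 107 CPM with shRNA-1, 43.9 to 58.4 in the controls and 252 to 265 with shRNA-2. Ppbp lost its call with the ribosomal RNA covariate (adjusted p = 0.143), and Cd9 with total-count scaling (0.0524). Prg3 and Prg2, the major basic proteins of eosinophil granules, fell from 9.23 ± 3.17 to 1.41 ± 0.520 CPM and from 52.8 ± 19.1 to 21.0 ± 11.8. The Prg2 call was lost when replicate 3 of shRNA-1 (adjusted p = 0.0558, edgeR) or replicate 2 of the control (0.0710) was dropped, and under the ribosomal RNA covariate (0.203). The summed level of the list with Prg2 and Prg3 was 37.2 to 72.0 CPM with shRNA-1 and 68.1 to 120 in the controls, with Mcpt4, Il5ra and Tpsb2 at 0. The part of other cell types in the results was not tested.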

How the data were processed

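RNA of 9 cultures was sequenced from oligo-dT primed, randomly second-strand primed cDNA, which weighs the 3′ end of polyadenylated RNA. The deposited values are raw counts per gene symbol, made by the authors with STAR 2.3.0e and HTSeq 0.6.0 on mm10, per the submitters' processing notes. The annotation, the strand setting and the treatment of multiply mapped reads were not given in the sources used here, so overlapping genes and paralogs cannot be told apart. Rows sharing a symbol (176 symbols in 429 of 39179 entries, 0.275% of counts) were summed.

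filterByExpr kept 12663 genes. All 9 libraries entered 1 edgeR 4.0.16 fit (R 4.3.3) with TMM factors and group as the only term, and the quasi-likelihood test was used with Benjamini-Hochberg adjustment and a threshold of 0.05. The pipeline was tested on simulated counts. Replicates differed by more than sampling noise. Lengths and positions came from GENCODE M21 on GRCm38, promoters from RefSeq.

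The gene sets, the named genes and the alternatives were chosen with earlier results of these data known. The rule named 26 genes whatever their values, the 15 largest rises and falls, the 10 largest that also differed from shRNA-2, and up to 3 rises and 3 falls per list, with means of at least 5 CPM for the ranked ones. Mmp8, Mmp9, Lcn2, Mllt3, Ptprc and Itgam fell outside it, and the first 4 were chosen after their values were seen. Of the 41 lists, several stand only in the plot of gene lists. That plot leaves out the lists of other cell types and of ribosomal RNA, mitochondrially encoded mRNAs and nuclear long noncoding RNAs. The lists of mitochondrially encoded mRNAs and nuclear long noncoding RNAs are not described here. Alternatives were DESeq2 size factors, total counts, other filters (none, or 5 CPM in 3 libraries), DESeq2 1.42.0, limma-voom 3.58.1, the 2 groups alone, a replicate block, a ribosomal RNA covariate, ribosomal RNA and mitochondrial genes left out, length offsets, stricter thresholds and leaving out each library.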

Additional observations from a re-analysis of the deposited data

How the results depend on the processing

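The 4389 calls against the control became 1358 under the ribosomal RNA covariate, 2300 at an adjusted p under 0.01 and 1437 with a change of at least 2-fold. Leaving out each library gave 2916 (without control replicate 3) to 5178 (without shRNA-2 replicate 1), with 2925 without shRNA-1 replicate 2. Against shRNA-2 the 5192 calls became 3318 and 2108 at those stricter thresholds, and 4028 to 5412 when a library was left out. The 440 calls among list members became 159 with the covariate and 308 to 506 when a library was left out. The other settings, among them DESeq2 (4515), limma-voom (4274) and length offsets (4142), stayed within 1.5 times. Scaling to total counts moved the median of all genes to -0.23, and 23.8% of 4549 calls were then higher against 50.1%, so each change is one relative to most genes.

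With the replicate number as a block (replicate block) 4963 genes were called. Correlations of same-numbered deviations were 0.23, -0.04 and 0.14. Those of replicates 1 and 3 were the highest of all pairings, while shRNA-1 replicate 2 correlated better with control replicate 3 (0.10) than with its own number. So few correlations cannot decide whether same-numbered libraries share more than a number.

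Of 114 genes described, 107 were called, and in these no setting changed the sign. The covariate ended 34 of the calls, 27 of which kept at least 50% of the log2 fold change, and the cause was not tested. Signs changed only in genes that were not called. With length offsets Hnrnpr became 0.41, Itgam 0.071, Ctsg -0.13, Csf1r 0.090 and Cebpe -0.091. With total counts Ctsg became -0.16, Cebpe -0.18 and Spi1 -0.12, and with the covariate Ctsg -0.34 and Cebpe -0.065. Leaving out each library gave -0.17 to 0.013 for Itgam (highest without shRNA-1 replicate 1), -0.30 to 0.19 for Csf1r (above 0 without shRNA-1 replicate 1 or control replicate 3) and -0.055 to 0.17 for Cebpe (below 0 without control replicate 1). Counting error limits genes of few counts, such as Mllt3, Retnlg and Csf3r.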
